A study of Mus musculus with 32 samples.

Results

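Alveolar macrophages are the resident phagocytes of the lung air spaces, and 10 genes known as markers of these cells were followed in lungs lacking Bmal1 and in wild-type lungs. They were chosen by name as Chil3, Marco, Ear1, Ear2, Krt79, Ctsk, Plet1, Mrc1, Cd68 and Fabp4. All 10 matched a row of the deposited gene table, which held 41687 rows, and all 10 passed the filter on low counts in every comparison. Whole lungs of 12 mice were used, 6 wild-type (WT) C57b/6 animals and 6 Bmal1 knockouts (KO), adults of 8 to 18 weeks that the labels give as female. RNA of each mouse was made into a RiboZero library, in which ribosomal RNA was pulled down and discarded, and into a PolyA library, selected for polyadenylated RNA. Mice 3 to 6 of each genotype also gave a NoSelect library, made without either selection, so that 32 libraries fell into 6 groups of 6, 6, 6, 6, 4 and 4. RiboZero and PolyA libraries started from 200 ng of RNA, and NoSelect libraries from 15 ng in 6 preparations that were combined. The labels do not state which part of Bmal1 was removed or in which cells.

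Alveolar macrophages settle in the air spaces around birth and depend on GM-CSF signalling and on the nuclear receptor PPARgamma. They take up inhaled particles, microbes and dead cells, and they break down surfactant lipid in their lysosomes. Bmal1, whose gene carries the symbol Arntl in the table, is a clock transcription factor that binds E-box sequences together with Clock. Among the genes followed, Marco and Mrc1 encode surface receptors for uptake. Chil3 encodes a secreted chitinase-like protein, and Ear1 and Ear2 encode secreted ribonucleases of the eosinophil-associated family. Cd68 is a glycoprotein of late endosomes and lysosomes, and Ctsk is a lysosomal protease best known from osteoclasts. Krt79 encodes a keratin, Plet1 a surface protein also found in epithelial progenitors, and Fabp4 a fatty acid binding protein that adipocytes and capillary endothelium make too.

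Total counts ran from 11638590 to 115059730 per library, and 67.8 to 71.5% of the counts of NoSelect libraries fell in Lars2 and a Gm42418 transcript. Levels are therefore given as CPM, counts scaled to a common library size, on a single TMM scale over all 32 libraries. Arntl itself was lower in KO libraries of every preparation, by log2 fold changes of -0.83 in RiboZero, -0.27 in PolyA and -0.69 in NoSelect (edgeR adjusted p = 2.46e-05, 0.0262 and 0.000451). In PolyA the WT and KO libraries overlapped for Arntl, and the call was lost in 8 of 12 fits that left out 1 library (edgeR adjusted p up to 0.0788). In the other preparations they did not overlap. The 8 lung markers summed to between 15853 and 51327 CPM, whereas the liver gene Alb stayed between 0.0771 and 1.404 CPM. KO mouse 6 stood apart from its labels in 2 ways. Its NoSelect library is labelled as liver, but its Alb level was 0.389 CPM and its level of the surfactant gene Sftpc was 5298 CPM, above the 3568 to 4898 CPM of the other NoSelect libraries. The same mouse, labelled female, carried the Y-linked transcript Ddx3y at 42.0 to 88.3 CPM, and the other 11 mice had 0 counts of it. The PolyA calls of Cd68, Mrc1 and Ctsk and the counts called between preparations are also given without this mouse. So are the correlations of Krt79 with Mrc1 and of Fabp4 with Adipoq, and the numbers of macrophage markers that fell. Most other values include this mouse, and no value without it alone is given for them. The labels number the mice but do not say whether they share litters or days.

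Several of the genes have near-identical relatives, and this limits how their counts can be read. Ear1 and Ear2 lie on chromosome 14 of GRCm38, at chr14:43818765-43875517 on the minus strand and at chr14:44102654-44103534 on the plus strand in GENCODE M21. Their coding sequences of 468 and 471 bases were 95.12% identical when aligned, with 20 mismatches and 3 gap columns. The first 150 coding bases of each are shown because they carry 5 of these differences, marked in capitals, at chr14:43819260-43819409 for Ear1 and chr14:44102887-44103036 for Ear2.
Ear1: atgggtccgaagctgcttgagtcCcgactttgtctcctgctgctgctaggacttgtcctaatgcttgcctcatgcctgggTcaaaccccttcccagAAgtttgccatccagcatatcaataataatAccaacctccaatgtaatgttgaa
Ear2: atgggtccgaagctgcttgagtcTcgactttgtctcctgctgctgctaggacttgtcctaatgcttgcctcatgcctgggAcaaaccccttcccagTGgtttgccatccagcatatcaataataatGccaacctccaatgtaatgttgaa
Of the 31-base words of the Ear1 transcript, 73.65% also occurred in transcripts of other genes and 40.56% in Ear2. For Ear2 the share was 60.52%, and for Chil3 it was 44.8%, mostly with Chil4. Krt79 and Plet1 shared under 1% of their words, and Marco, Ctsk, Mrc1, Cd68 and Fabp4 shared none. The levels of Ear1, Ear2 and Chil3 are therefore uncertain as far as the quantifier divided reads between copies. Chil4 and Ear6, relatives that mark other cell states, did not pass the filter on low counts in the comparisons of KO with WT. Chil4 did pass it where PolyA was compared with RiboZero and with NoSelect.

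Chil3 was the most abundant of the 10 transcripts and Marco and Krt79 were the scarcest, once counts were divided by transcript length. In RiboZero, Chil3 stood at 107.7 ± 31.9 CPM per kilobase (SD, n = 12), followed by Ear2 at 29.7 ± 3.96 and Plet1 at 24.8 ± 4.70. Chil3 lay above Ear2 in 12 of 12 RiboZero libraries with no overlap of their ranges. Ear2 lay above Plet1 in 10 of 12 libraries, and their ranges overlapped. Mrc1 came 4th at 14.4 ± 2.13 CPM per kilobase, and Cd68, Ear1, Ctsk and Fabp4 followed between 10.6 and 7.12, each overlapping its neighbour. Krt79 at 3.34 ± 1.00 and Marco at 3.39 ± 1.15 closed the order, and Marco was the higher in only 5 of 12 libraries. In NoSelect the first 8 genes had the same order as in RiboZero. In PolyA, Chil3 again led at 59.5 ± 21.9 CPM per kilobase, but Mrc1 stood 8th at 4.66 ± 0.809 and Fabp4 rose to 4th at 13.2 ± 5.19.

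**Figure D1:**
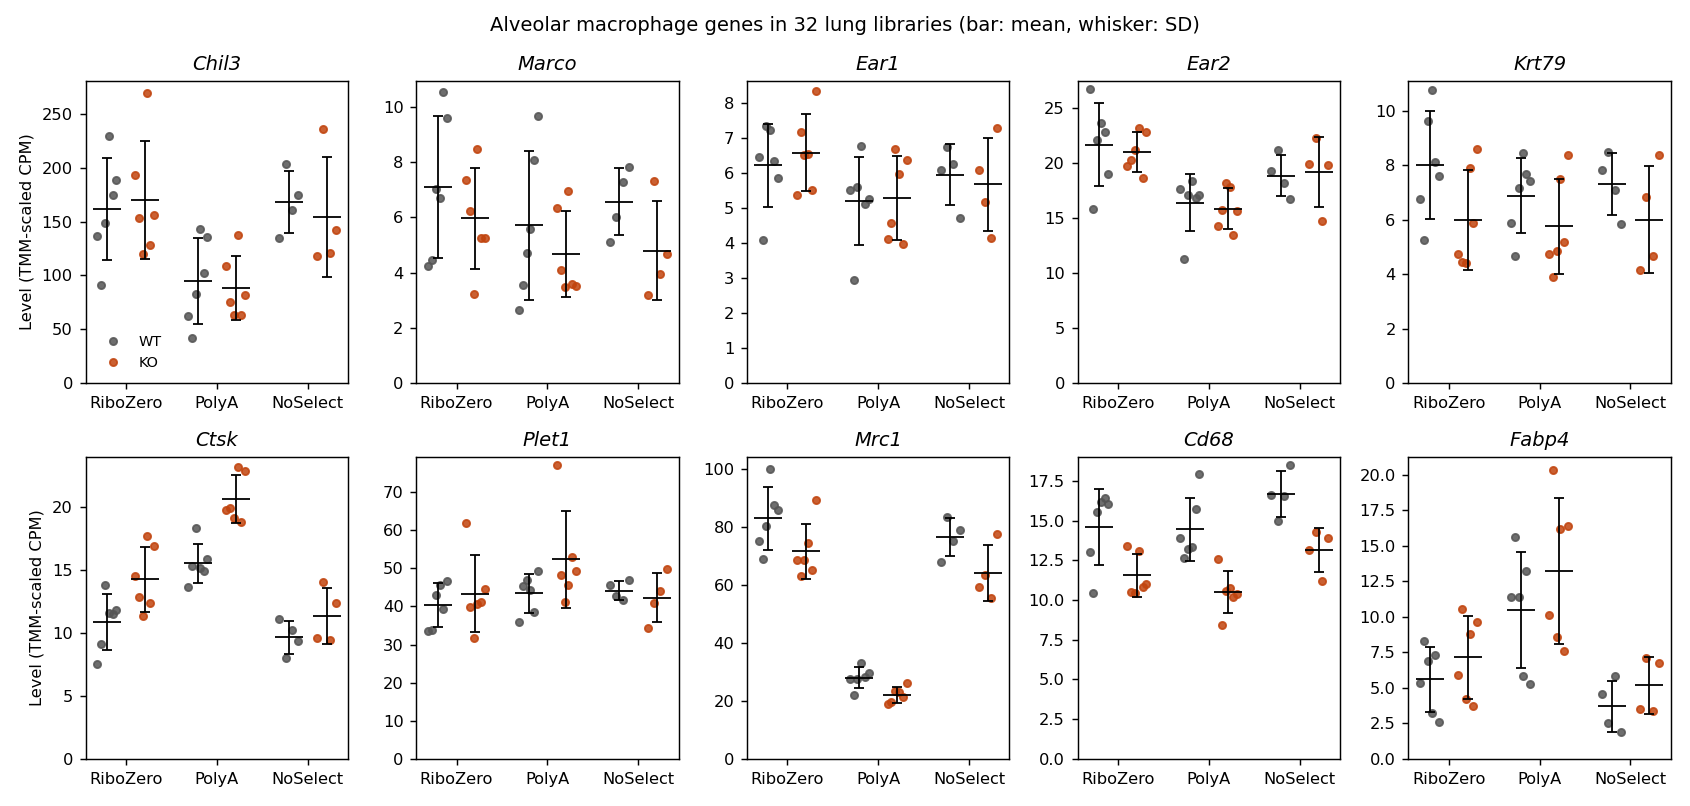
Level of each of the 10 genes in 32 lung libraries, in CPM on one TMM scale (vertical axis, linear, from 0), by preparation and genotype. Points are mice, bars the mean and whiskers the SD. Mrc1 lies between 18.9 and 33.0 CPM in PolyA and between 55.5 and 100.1 CPM in the other preparations, and the WT and KO points of most genes overlap.

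The first comparison asked how loss of Bmal1 changed these genes within each preparation. In PolyA libraries, 3 of the 10 genes changed: Ctsk rose, and Mrc1 and Cd68 fell. Neither the RiboZero nor the NoSelect libraries gave a called gene, although the 3 genes had the same signs there. In whole lung, fewer cells of a type and less RNA of a gene per cell cannot be told apart. The transcripts of the secreted proteins Chil3, Ear1 and Ear2 differed by at most 0.13 on the log2 scale in the main fit of any preparation. For Chil3 the SEs were 0.23 to 0.29. Over the alternatives its value ran from -0.46 to 0.02 in PolyA and from -0.41 to -0.02 in NoSelect, so a moderate change could have been missed. A call required an edgeR quasi-likelihood p under 0.05 after Benjamini-Hochberg adjustment over all rows. By that rule 4.03% of all rows were called in PolyA, 3.46% in RiboZero and 2.17% in NoSelect. At an unadjusted p under 0.05 the 10 genes gave 3 in RiboZero, 3 in PolyA and 2 in NoSelect, beside 16.4%, 18% and 15.7% of all rows. DESeq2 called 0, 3 and 1 of them. The median log2 fold change of the 10 genes was 0.01 in RiboZero, -0.11 in PolyA and -0.10 in NoSelect, and over all rows it was -0.00 in RiboZero and PolyA and 0.00 in NoSelect.

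**Figure D2:**
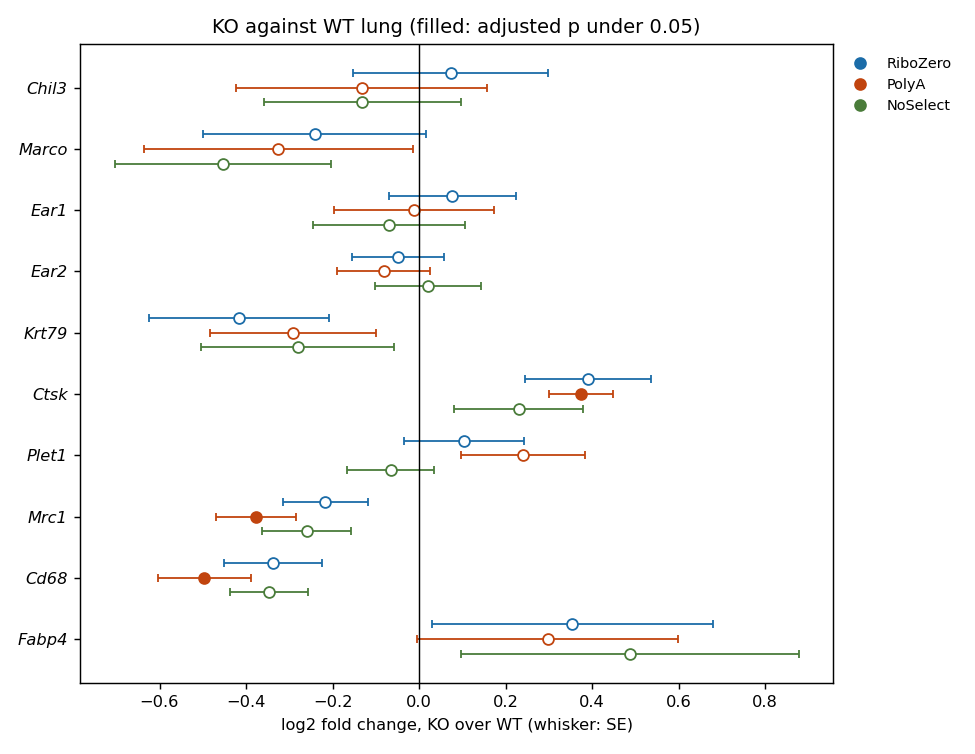
Log2 fold change of KO over WT lungs (horizontal axis) for each gene in RiboZero, PolyA and NoSelect, with whiskers of 1 SE and filled points where the adjusted p is under 0.05. Filled points are Ctsk at 0.37, Mrc1 at -0.38 and Cd68 at -0.50, all in PolyA.

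Cd68, the lysosomal glycoprotein used as a general macrophage marker, lies at chr11:69664213-69666153 on the minus strand. In PolyA the WT libraries ran from 12.6 to 17.9 CPM with a median of 13.6, and the KO libraries from 8.43 to 12.6 with a median of 10.5. The groups did not overlap, but the highest KO library, mouse 1, came within 0.1 CPM of the lowest WT library, mouse 2. The means were 14.4 ± 2.00 CPM in WT and 10.5 ± 1.32 CPM in KO (SD, n = 6 each), a log2 fold change of -0.50 (SE 0.11, edgeR adjusted p = 0.0217). In NoSelect the WT levels of mice 3 to 6 were 16.6, 15.0, 16.5 and 18.5 CPM and the KO levels were 13.2, 14.3, 11.2 and 13.9 CPM. All KO values lay below all WT values there, with a log2 fold change of -0.35 that did not pass (SE 0.09, edgeR adjusted p = 0.102). RiboZero WT libraries ran from 10.4 to 16.4 CPM (median 15.8) and KO libraries from 10.5 to 13.4 CPM (median 10.9). WT mouse 2 was the lowest of all 12 RiboZero libraries, so the groups overlapped, and the log2 fold change of -0.34 did not pass (SE 0.11, edgeR adjusted p = 0.137). The PolyA call was lost without WT mouse 5, KO mouse 2, KO mouse 5 or KO mouse 6, with an edgeR adjusted p of at most 0.0605. Without KO mouse 6 the value was -0.48 (edgeR adjusted p = 0.0506), and without WT mouse 2 Cd68 was called in RiboZero (-0.42, edgeR adjusted p = 0.0230).

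Mrc1 encodes the macrophage mannose receptor CD206, which takes up mannosylated glycoproteins, and lies at chr2:14229392-14332057 on the plus strand. PolyA libraries of WT mice held 22.1 to 33.0 CPM with a median of 27.9, and those of KO mice 18.9 to 26.3 CPM with a median of 22.1. WT mouse 2 was the lowest WT library, and KO mice 3, 4 and 6 lay above it. The means were 27.998 ± 3.56 and 22.1 ± 2.79 CPM (SD, n = 6 each), a log2 fold change of -0.38 (SE 0.09, edgeR adjusted p = 0.0401). In RiboZero the WT libraries ran from 68.7 to 100.1 CPM (median 83.1) and the KO libraries from 63.1 to 89.3 (median 68.6). KO mouse 6 was the highest KO library in all 3 preparations. RiboZero gave a log2 fold change of -0.22 (SE 0.10, edgeR adjusted p = 0.291), which became -0.29 without KO mouse 6 (0.0928). NoSelect levels of mice 3 to 6 were 68.0, 83.4, 74.9 and 79.0 CPM in WT and 59.3, 63.3, 55.5 and 77.6 CPM in KO. The 3 lowest values there were KO libraries and KO mouse 6 lay among the WT values, with a log2 fold change of -0.26 (SE 0.10, edgeR adjusted p = 0.270). The call in PolyA was lost in 10 of 12 fits that left out 1 library, with edgeR adjusted p from 0.0102 to 0.108 over the 12 fits. It held without WT mouse 2 (-0.43, edgeR adjusted p = 0.0102) and without KO mouse 6 (-0.42, edgeR adjusted p = 0.0300).

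Ctsk, the collagen-degrading protease cathepsin K, lies at chr3:95499256-95509362 on the plus strand and was the only gene of the 10 that rose. WT libraries of PolyA ran from 13.6 to 18.3 CPM with a median of 15.2, and KO libraries from 18.8 to 23.2 CPM with a median of 19.8. Every KO library lay above every WT library, of which mouse 3 was the highest. The means were 15.5 ± 1.54 and 20.6 ± 1.91 CPM (SD, n = 6 each), a log2 fold change of 0.37 (SE 0.07, edgeR adjusted p = 0.0131). Leaving out any 1 library kept the call, and without KO mouse 6 the value was 0.36 (edgeR adjusted p = 0.0264). With mice 3 to 6 alone it was lost (edgeR adjusted p = 0.0852). RiboZero libraries held 7.55 to 13.8 CPM in WT (median 11.5) and 11.3 to 17.7 CPM in KO (median 13.7), and the groups overlapped. The log2 fold change there was 0.39, as large as in PolyA but with a larger error (SE 0.15, edgeR adjusted p = 0.188). NoSelect levels were 11.1, 7.99, 10.2 and 9.33 CPM in WT and 9.61, 14.0, 9.44 and 12.4 CPM in KO, with no clear order of the groups (0.23, SE 0.15, edgeR adjusted p = 0.516). Cells other than macrophages can carry Ctsk, fibroblasts among them. The 10 fibroblast markers summed to 2143 to 2882 CPM in PolyA WT libraries and to 2507 to 3358 CPM in PolyA KO libraries, and none of the 10 was at 0. Among them Mfap4 rose by 1.12 and Dcn and Fn1 fell by 0.78 and 0.71 on the log2 scale in PolyA (edgeR adjusted p = 0.00409, 0.00393 and 0.0492), and the Fn1 call was lost in 11 of 12 fits that left out 1 library. Their part in the Ctsk result was not tested.

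The promoters of these 3 genes are shown because they are the ones that changed and because Bmal1 binds the E-box, spelled CACGTG. Each is the 250 bases before the RefSeq start in GRCm38.p6, with motif matches in capitals: Mrc1 is chr2:14229164-14229413 (plus strand), Cd68 is chr11:69666171-69666420 (minus strand) and Ctsk is chr3:95498960-95499209 (plus strand).
Mrc1: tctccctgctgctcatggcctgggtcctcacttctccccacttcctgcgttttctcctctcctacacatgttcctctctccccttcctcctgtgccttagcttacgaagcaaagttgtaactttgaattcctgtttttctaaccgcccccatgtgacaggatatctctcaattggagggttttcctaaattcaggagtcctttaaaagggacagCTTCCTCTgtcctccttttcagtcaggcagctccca
Cd68: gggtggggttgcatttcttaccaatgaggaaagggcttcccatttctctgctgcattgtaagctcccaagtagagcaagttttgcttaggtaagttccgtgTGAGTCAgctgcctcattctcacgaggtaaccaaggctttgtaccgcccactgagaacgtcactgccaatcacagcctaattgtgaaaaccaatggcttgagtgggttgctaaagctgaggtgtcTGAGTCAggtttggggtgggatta
Ctsk: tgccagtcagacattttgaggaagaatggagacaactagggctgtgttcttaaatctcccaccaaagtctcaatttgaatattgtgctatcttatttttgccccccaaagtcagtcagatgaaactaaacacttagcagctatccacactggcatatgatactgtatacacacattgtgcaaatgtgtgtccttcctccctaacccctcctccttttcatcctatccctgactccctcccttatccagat
CACGTG, read on both strands, occurred in 0 of the 9 promoters that could be matched, beside 6.02% of 32851 promoters of the same length. AGAGGAAG, a sequence bound by the macrophage factor PU.1, occurred in Mrc1 and Marco and in 3.67% of all promoters. In Mrc1 it lay on the opposite strand, 29 to 36 bases before the start. TGACTCA, the AP-1 sequence, occurred in Cd68 at 2 places, 18 to 24 and 143 to 149 bases before the start, and in 4.46% of all promoters. Neither sequence overlapped the other, and Ctsk held none of the 3. These are matches of letters in a window and not measured binding. The promoters of Ear1 and Ear2 were 99.19% identical over 248 aligned bases. Fabp4 had no entry.

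Among the receptors, Marco, a scavenger receptor for bacteria and particles at chr1:120474538-120505024 on the minus strand, was lower on average in KO but varied widely. RiboZero WT libraries held 4.24 to 10.5 CPM (median 6.87) and KO libraries 3.23 to 8.48 CPM (median 5.74). PolyA gave 2.66 to 9.67 CPM in WT and 3.50 to 6.95 CPM in KO. In NoSelect the WT levels were 5.13, 6.03, 7.28 and 7.81 CPM and the KO levels 3.20, 7.33, 3.97 and 4.69 CPM. The groups overlapped in every preparation, and the log2 fold changes of -0.24, -0.33 and -0.45 had SEs of 0.26, 0.31 and 0.25 (edgeR adjusted p = 0.710, 0.630 and 0.439). The size moved when single libraries were left out: it was -0.096 in RiboZero without WT mouse 5 and -0.095 in PolyA without WT mouse 6. In NoSelect it was -0.73 without KO mouse 4, and with mice 3 to 6 alone it was -0.59 in RiboZero and -0.71 in PolyA. Marco was counted at 46 to 498 per library, so counting error adds to this spread.

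The secreted proteins showed no change that passed. Chil3 lies at chr3:106147554-106167564 on the minus strand. In RiboZero it ran from 91.2 to 229 CPM in WT (median 162) and from 120.1 to 269 CPM in KO (median 155). In PolyA it ran from 42.3 to 143 CPM in WT (median 92.5) and from 62.9 to 138 CPM in KO (median 78.8). NoSelect levels were 135, 204, 161 and 174 CPM in WT and 118, 236, 121 and 142 CPM in KO. The same mice marked the ends of the range across preparations: WT mouse 2 was lowest in RiboZero and PolyA, and KO mouse 4 was highest in RiboZero and NoSelect and next to the highest in PolyA. Log2 fold changes of Chil3 were 0.07, -0.13 and -0.13 in RiboZero, PolyA and NoSelect, with SEs of 0.23 to 0.29 (edgeR adjusted p = 0.918, 0.862 and 0.846). Ear2 had the smallest spread between mice of the 10 genes in RiboZero and PolyA, with CVs of 13.3% and 13.4%. It stood at 15.8 to 26.7 CPM in RiboZero, 11.3 to 18.4 CPM in PolyA and 14.7 to 22.2 CPM in NoSelect. Its log2 fold changes were -0.05, -0.08 and 0.02 (SE 0.11, 0.11 and 0.12, edgeR adjusted p = 0.881, 0.747 and 0.962). Ear1 lay at 4.08 to 8.37, 2.95 to 6.77 and 4.16 to 7.29 CPM in the same order, with log2 fold changes of 0.08, -0.01 and -0.07 (edgeR adjusted p = 0.860, 0.983 and 0.898).

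Krt79 is a keratin gene at chr15:101929332-101940324 on the minus strand. Its levels were 5.26 to 10.8 CPM in RiboZero WT (median 7.85) and 4.42 to 8.61 CPM in RiboZero KO (median 5.31), and 4 of the 6 KO libraries lay at 5.87 CPM or lower. KO mice 4 and 6 were within the WT range in all 3 preparations. The log2 fold changes were -0.42, -0.29 and -0.28 (SE 0.21, 0.19 and 0.22, edgeR adjusted p = 0.346, 0.457 and 0.606 in RiboZero, PolyA and NoSelect). Plet1 lies at chr9:50494525-50505482 on the plus strand and stood at 31.8 to 61.9 CPM in RiboZero, 35.99 to 77.0 CPM in PolyA and 34.4 to 49.7 CPM in NoSelect. KO mouse 1 was the highest library in RiboZero and in PolyA, and had no NoSelect library. Plet1 log2 fold changes were 0.10, 0.24 and -0.07 (SE 0.14, 0.14 and 0.10, edgeR adjusted p = 0.779, 0.407 and 0.818).

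Fabp4, the lipid carrier, lies at chr3:10204088-10208576 on the minus strand and varied more between mice than any other of the 10 genes in RiboZero and NoSelect, with CVs of 41.2% and 43.7%. RiboZero WT libraries ran from 2.59 to 8.29 CPM (median 6.11) and KO libraries from 3.76 to 10.6 CPM (median 7.35). In PolyA the ranges were 5.30 to 15.6 CPM (median 11.4) and 7.61 to 20.3 CPM (median 13.2). NoSelect gave 4.53, 2.53, 5.82 and 1.90 CPM in WT and 3.52, 7.13, 3.39 and 6.73 CPM in KO. KO mice 2, 4 and 6 were high and KO mice 3 and 5 low wherever they were measured. WT mice 4 and 6 were the lowest of all mice in each preparation. The log2 fold changes of 0.35, 0.30 and 0.49 had SEs of 0.32, 0.30 and 0.39 (edgeR adjusted p = 0.652, 0.658 and 0.609), so no difference was detectable against this spread.

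Whether the effect of the knockout itself differed between preparations was tested as an interaction. None of the 10 genes passed for any of the 3 pairs of preparations with edgeR. At an unadjusted p under 0.05 there were 0 of them as well, beside 1.82% of all rows for the pair of PolyA and RiboZero, 2.24% for PolyA and NoSelect and 1.39% for RiboZero and NoSelect. DESeq2 called 0 of the 10. Over all rows, edgeR called 0% for each pair, and DESeq2 called 12, 15 and 9 rows in the same order. The effect on Cd68 differed by -0.14 (SE 0.16) between PolyA and RiboZero and by -0.17 (SE 0.16) between PolyA and NoSelect. For Ctsk the differences were 0.01 (SE 0.17) and 0.12 (SE 0.16), and for Mrc1 they were -0.14 (SE 0.15) and -0.14 (SE 0.16). A call in PolyA that is missing in the other preparations was thus not shown to be a difference between preparations. These fits held no term for the mouse, although libraries of the same mouse deviated together, so small differences may have been missed. With the mouse as a block the 10 genes again gave 0 calls.

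The groups of WT and KO libraries were free of overlap for 2 of the 10 genes in PolyA (Ctsk and Cd68), for 0 in RiboZero and for 1 in NoSelect (Cd68). Over all rows tested this held for 3.32%, 2.85% and 9.55%.

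The second comparison asked how the preparation moved the measured level of each gene in the same lungs. Mrc1 was lower in PolyA libraries, at a mean of 25.03 ± 4.35 CPM (SD, n = 12) against 77.2 ± 11.5 CPM in RiboZero (n = 12) and 70.1 ± 10.1 CPM in NoSelect (n = 8). Fabp4 was higher in PolyA, at 11.8 ± 4.65 CPM against 6.38 ± 2.63 and 4.44 ± 1.94 CPM. No gene of the 10 was called between RiboZero and NoSelect, both of which keep RNA without a poly(A) tail. Here a call required an adjusted p under 0.05 and also a change of 1 or more on the log2 scale in either direction. By that rule 1 of the 10 genes was called for PolyA against RiboZero, where 23.6% of all rows were called. The comparison of PolyA with NoSelect called 2 of the 10, beside 25.1% of all rows. RiboZero with NoSelect called 0 of the 10, beside 4.3% of all rows (1.74% higher and 2.56% lower). At an unadjusted p under 0.05 the 10 genes gave 6, 6 and 2, beside 82.1%, 80.1% and 51.2% of all rows, and DESeq2 called 0 of the 10 between RiboZero and NoSelect. The median log2 change of all rows was 0.07, 0.10 and 0.03 in these comparisons, and that of the 10 genes was -0.25, -0.13 and 0.14.

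**Figure D3:**
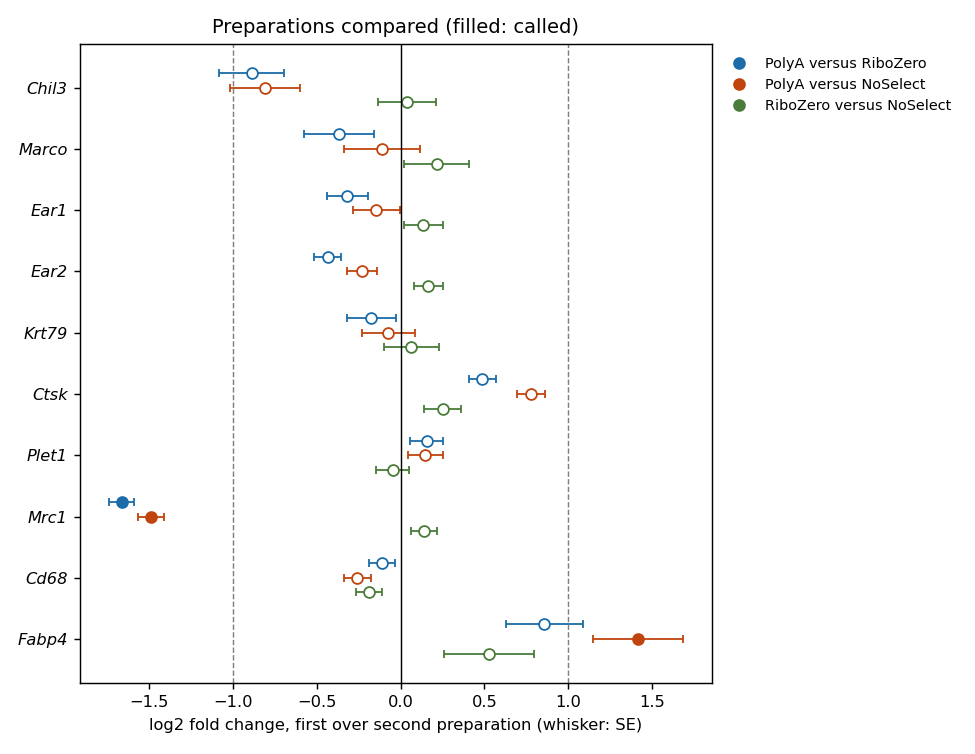
Log2 fold change between preparations (horizontal axis, first named over the second) for each gene, with whiskers of 1 SE, dashed lines at -1 and 1, and filled points for calls. Mrc1 lies at -1.66 and -1.48 in PolyA against RiboZero and NoSelect, Fabp4 at 1.41 against NoSelect, and the points of RiboZero against NoSelect all lie within the dashed lines.

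The lower Mrc1 level of PolyA libraries held in every mouse. The ratio of PolyA to RiboZero within a mouse ran from 0.275 to 0.365 with a median of 0.324, below 1 in 12 of 12 mice. The ratio of PolyA to NoSelect ran from 0.339 to 0.406, below 1 in 8 of 8 mice. The fitted log2 fold changes were -1.66 (SE 0.08, edgeR adjusted p = 2.26e-16) and -1.48 (SE 0.08, edgeR adjusted p = 2.65e-13). Mrc1 has the longest transcript of the 10 genes, 5374 bases in 30 exons of GENCODE M21, and the other 9 have transcripts of 713 to 2097 bases. Mrc1 in RiboZero exceeded Mrc1 in NoSelect slightly, by 1.09 to 1.20 times in 8 of 8 mice, as did 7 others of the 10 genes in 8 of 8 mice. Its log2 fold change of 0.14 did not pass in the fit without the mouse (edgeR adjusted p = 0.149). Over the alternatives its adjusted p (edgeR or DESeq2) ran from 4.28e-07 to 0.253. Ratios use the TMM scale over all 32 libraries, whereas each fit scales its own libraries, so they can differ. Chil3 had a median ratio of 1.09 here but a fitted log2 fold change of 0.04.

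Fabp4 moved the other way in every mouse. PolyA over RiboZero ran from 1.65 to 2.14 with a median of 1.86, above 1 in 12 of 12 mice, and PolyA over NoSelect from 2.24 to 2.79, above 1 in 8 of 8 mice. Although its level spanned a 4.07-fold range over the RiboZero libraries, the ratio between preparations spanned little. The log2 fold change was 1.41 against NoSelect (SE 0.27, edgeR adjusted p = 6.52e-05) and 0.86 against RiboZero (SE 0.23, edgeR adjusted p = 0.00147), the latter below the fold required for a call. Ctsk was also higher in PolyA in every mouse, 1.30 to 1.81 times against RiboZero and 1.46 to 1.99 times against NoSelect. Its log2 fold changes of 0.49 and 0.78 had adjusted p of 8.33e-06 and 2.40e-08 in edgeR but were under the fold required.

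Chil3 was lower in PolyA than in RiboZero in 12 of 12 mice, at 0.458 to 0.720 times, and lower than in NoSelect in 8 of 8, at 0.523 to 0.778 times. Its log2 fold changes of -0.89 (SE 0.19, edgeR adjusted p = 0.00018) and -0.81 (SE 0.21, edgeR adjusted p = 0.00146) stayed under the fold required. Ear2 was lower in PolyA than in RiboZero in 12 of 12 mice, with a log2 fold change of -0.43 (SE 0.08, edgeR adjusted p = 2.77e-05), and Ear1 in 11 of 12 mice with -0.32 (SE 0.12, edgeR adjusted p = 0.0217). Marco, Krt79, Plet1 and Cd68 differed by -0.37 to 0.15 between PolyA and RiboZero, with edgeR adjusted p from 0.104 to 0.279. That fit held no term for the mouse. Over the alternatives the smallest adjusted p (edgeR or DESeq2) was 3.21e-05 for Marco, 0.00205 for Krt79, 0.00139 for Plet1 and 0.04996 for Cd68. Within mice, Marco was lower in PolyA in 10 of 12 and Krt79 in 11 of 12. Plet1 was higher in 10 of 12 and Cd68 lower in 8 of 12. All 4 stayed under the fold required. Against NoSelect, Cd68 was lower in PolyA in 8 of 8 mice, with a log2 fold change of -0.26 (SE 0.08, edgeR adjusted p = 0.00676), under the fold required. Without KO mouse 6 the counts of called genes were again 1, 2 and 0.

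Across the 12 mice, with the mean of each genotype taken off, the 10 genes moved together in part. Of 45 pairs, 3 had an adjusted permutation p under 0.05 for Pearson's r in RiboZero and 4 in PolyA. The median Pearson r over the pairs was 0.50 in RiboZero and 0.26 in PolyA. Krt79 with Mrc1 was the 1 pair past the threshold in both preparations. In RiboZero this pair had Pearson r = 0.832 and Spearman rho = 0.860 (n = 12, permutation p = 0.00088 and 0.00084, adjusted over 45 pairs 0.0198 and 0.0189). Without the 2 mice farthest from the median r was 0.702, and without KO mouse 6 it was 0.769. In PolyA the pair had r = 0.851 and rho = 0.832 (permutation p = 0.00081 and 0.00295, adjusted 0.0182 and 0.0425). There r was 0.727 without the 2 farthest mice and 0.798 without KO mouse 6. Libraries of a mouse share its RNA, so the preparations are not independent evidence of each other. Ear1 and Ear2, whose reads can be exchanged, had r = 0.934 in PolyA (rho = 0.825, permutation p = 0.00049 and 0.00281, adjusted 0.0182 and 0.0425) and 0.811 without the 2 farthest mice. In RiboZero the pair did not pass (r = 0.778, rho = 0.685, permutation p = 0.00797 and 0.0215, adjusted 0.0598 and 0.0805).

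Fabp4 moved with most of the adipocyte markers across mice. In each preparation 5 of the 8 adipocyte markers that passed the filter had an adjusted permutation p under 0.05 for r with Fabp4, all 5 with a positive r, and the median r of the 8 was 0.855 in RiboZero and 0.851 in PolyA. By both r and rho 4 passed in RiboZero (Adipoq, Cfd, Retn and Pck1) and 3 in PolyA (Cfd, Retn and Cidec). Cidec is also among the 30 other alveolar macrophage genes described below, so it does not mark adipocytes alone. Lipe, which encodes hormone-sensitive lipase, had a negative r with Fabp4 in both (-0.57 and -0.45) that did not pass (permutation p = 0.0710 and 0.176, adjusted 0.322 and 0.493). None of 12 endothelial markers passed with Fabp4 in either preparation, and their median r was -0.24 in RiboZero and -0.28 in PolyA. With Adipoq, the adipocyte hormone adiponectin, the RiboZero libraries gave r = 0.926 and rho = 0.888 (n = 12, permutation p = 6e-05 and 0.00072, adjusted over 77 pairs 0.00462 and 0.0185). Without the 2 farthest mice r was 0.942, and without KO mouse 6 it was 0.928. PolyA libraries gave r = 0.893 and rho = 0.790 (permutation p = 9e-05 and 0.00491, adjusted over 78 pairs 0.00351 and 0.0766), with 0.934 and 0.889 after the same omissions. Adipoq ran from 0.0909 to 4.28 CPM in RiboZero and from 0.0582 to 5.67 CPM in PolyA, and WT mice 4 and 6 and KO mice 3 and 5, low in Fabp4, lie at the low end of the plot of both genes. The lowest Adipoq levels rest on few counts. The 10 adipocyte markers summed to 67.2 to 118.7 CPM in RiboZero and 77.9 to 155.9 CPM in PolyA. Each of the 10 had more than 3 counts in at least 1 of the 32 libraries, which does not show that it was well counted in every group. Their part in the Fabp4 level was not tested. Of the other relations asked, Ctsk passed with 0 of 10 fibroblast markers and Plet1 with 0 of 7 epithelial markers in RiboZero and 0 of 8 in PolyA. Mrc1 and Cd68 passed with 0 of 20 interstitial macrophage and monocyte markers in RiboZero and 1 of 20 each in PolyA.

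**Figure D4:**
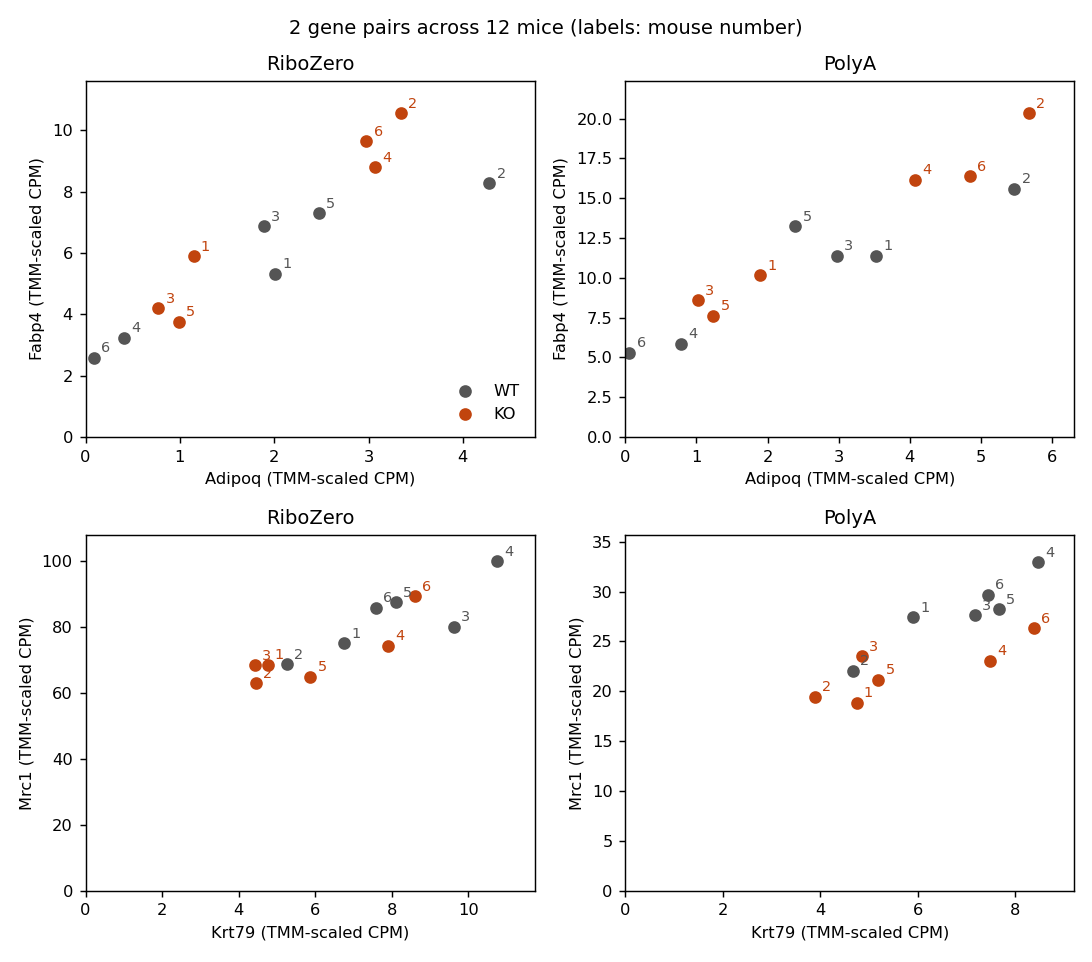
Levels of Fabp4 against Adipoq (top) and of Mrc1 against Krt79 (bottom) in RiboZero (left) and PolyA (right), in TMM-scaled CPM on linear axes from 0. Each point is a mouse, with its number and coloured by genotype. Mice low in Adipoq are low in Fabp4 (r = 0.926 and 0.893 with genotype means taken off), and Mrc1 rises with Krt79 (r = 0.832 and 0.851).

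The mean standardised profile of the 10 genes over the mice was compared with 13081 rows, the 10 genes among them, as a description. The 5 rows most like it, by the smaller r of RiboZero and PolyA over 12 mice each, were Atp6v0d2 (0.954 and 0.924), Ccl6 (0.866 and 0.866), Ms4a8a (0.878 and 0.865), Mcoln3 (0.865 and 0.861) and F7 (0.858 and 0.814). Atp6v0d2 encodes a subunit of the vacuolar proton pump, Ccl6 a chemokine, Mcoln3 a lysosomal ion channel and F7 a coagulation factor. Of the 10 genes themselves, Chil3 was closest to their mean (0.863 and 0.887) and Fabp4 farthest (0.103 and -0.211). The mean holds each of the 10 genes itself, which raises their r, so these values cannot be set beside those of other rows. Plet1 followed the mean in RiboZero (0.593) more than in PolyA (0.101). The points share library, depth and preparation.

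Most of the remaining known alveolar macrophage genes had a negative sign in KO lungs, but few were called. The sign was negative for 21, 22 and 21 of the 30 in RiboZero, PolyA and NoSelect. Over all rows it was negative for 8355 of 16710, 8736 of 17211 and 8536 of 17124. Of 30 such genes, 1 rose and 1 fell in RiboZero, 1 rose and 3 fell in PolyA, and 0 rose and 3 fell in NoSelect. Over all rows, 1.84%, 1.62% and 1.19% rose and 1.63%, 2.41% and 0.981% fell. The medians over the list were -0.11, -0.16 and -0.09. Itgax, the integrin CD11c, fell in all 3 preparations, by 0.33, 0.54 and 0.29 on the log2 scale (edgeR adjusted p = 0.0221, 0.0174 and 0.0388). In PolyA its WT libraries ran from 26.5 to 34.5 CPM and its KO libraries from 15.7 to 26.2 CPM, without overlap. Lpl, lipoprotein lipase, rose by 0.56 in RiboZero and 0.57 in PolyA (edgeR adjusted p = 0.00782 and 0.0313). Trem2, a lipid-sensing receptor, fell by 0.66 in PolyA and 0.74 in NoSelect (0.00999 and 0.0432). Siglecf, the lectin that sets alveolar macrophages apart from other lung macrophages, had values of -0.11, -0.16 and -0.14 that did not pass (edgeR adjusted p = 0.814, 0.635 and 0.648). Over the alternative settings and omitted libraries the number that fell ranged from 0 to 2, 0 to 5 and 0 to 3. Without KO mouse 6 it was 1, 2 and 1. When 1 library was left out, Trem2 in NoSelect was lost in 8 of 8 fits, Itgax in NoSelect in 7 of 8 and in RiboZero in 4 of 12, and Lpl in PolyA in 6 of 12, with edgeR adjusted p up to 0.121. Itgax and Trem2 in PolyA and Lpl in RiboZero passed in all 12.

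Other lung macrophages and monocytes also carry Cd68 and Mrc1. Of 20 markers of those cells 5 fell in RiboZero, 8 in PolyA and 2 in NoSelect, and 0 rose, with medians of -0.37, -0.49 and -0.36. Over all rows 1.63%, 2.41% and 0.981% fell and 1.84%, 1.62% and 1.19% rose. The sign was positive for 3, 2 and 3 of the 20, and over all rows for 8355 of 16710, 8475 of 17211 and 8588 of 17124. At an unadjusted p under 0.05 there were 13, 13 and 12, beside 16.4%, 18% and 15.7% of all rows. C1qa, a chain of complement C1q, fell in all 3 preparations, by 0.59, 0.66 and 0.68 on the log2 scale (edgeR adjusted p = 0.0343, 0.0407 and 0.0345). These C1qa calls were lost in 9 of 12, 9 of 12 and 6 of 8 fits that left out 1 library, with adjusted p up to 0.0987. Adgre1, which encodes F4/80, fell by 0.40 in RiboZero and 0.67 in PolyA (0.0420 and 0.00711), and Itgam and Folr2 fell in PolyA by 1.03 and 0.98 (0.00392 and 0.00155). Lyve1, a receptor of perivascular macrophages, fell in RiboZero by 0.53 (edgeR adjusted p = 0.0206). Leaving out 1 library ended the RiboZero call of Adgre1 in 11 of 12 fits (edgeR adjusted p up to 0.0965) and that of Lyve1 in 2 of 12 (up to 0.0521), whereas the PolyA calls of Adgre1, Itgam and Folr2 held in all 12. The 20 markers summed to 1588 to 1824 CPM in RiboZero WT libraries and 1462 to 2023 CPM in KO libraries, to 1315 to 1670 and 1233 to 1669 CPM in PolyA, and to 1763 to 1869 and 1519 to 2065 CPM in NoSelect. The summed levels of WT and KO libraries thus overlapped, and none of the 20 was at 0. Without KO mouse 6 the number that fell was 3, 6 and 1, and over all alternatives the number ran from 0 to 7, 3 to 10 and 0 to 8. The part of these cells in the Cd68 and Mrc1 results was not tested. The 10 general leukocyte markers gave 0 calls in each preparation with edgeR, and 1, 0 and 5 had an unadjusted p under 0.05, and the sign of all 10 was negative in each. Their summed level overlapped between WT and KO, at 455 to 737 and 351 to 719 CPM in PolyA. The 12 endothelial markers gave 0, 0 and 1 call (Egfl7, higher by 0.31 in NoSelect, edgeR adjusted p = 0.0173), with 3 at an unadjusted p under 0.05 in each preparation. The 8 adipocyte markers tested gave 0 calls, with 0, 1 and 0 at an unadjusted p under 0.05, and their medians were 0.18, 0.19 and 0.31. Of 8 eosinophil markers, whose cells also carry Ear1 and Ear2, 2 or 3 passed the filter and 0 were called, with 0 at an unadjusted p under 0.05.

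**Figure D5:**
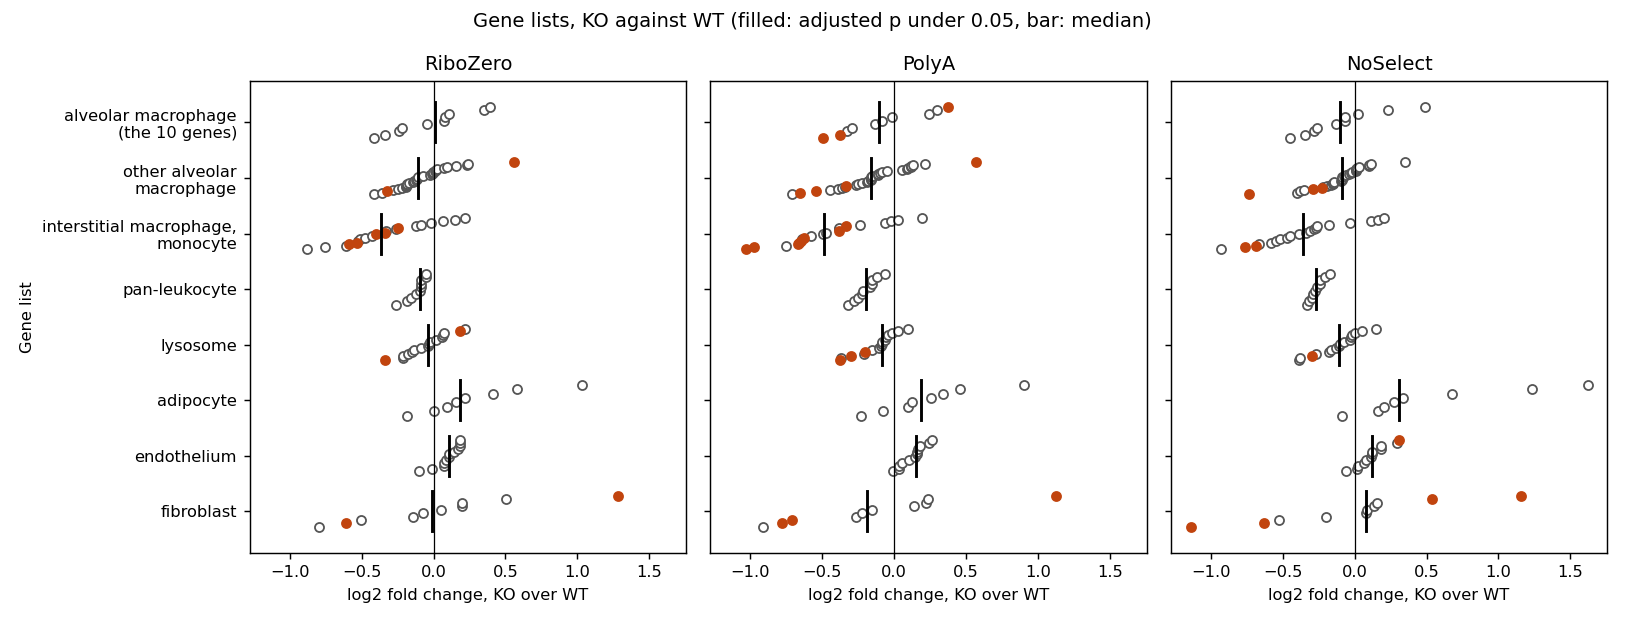
Log2 fold change of KO over WT (horizontal axis) for the genes of 8 lists in RiboZero, PolyA and NoSelect. Each point is a gene, filled where the adjusted p is under 0.05, and the black bar is the list's median. The interstitial macrophage and monocyte list has medians of -0.37, -0.49 and -0.36, and the 10 alveolar macrophage genes medians of 0.01, -0.11 and -0.10.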

How the data were processed

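Lung RNA of 12 mice was sequenced as 32 stranded libraries with molecular identifiers, per the labels' protocols. Values are estimated counts, which the authors deposited for each gene in a single table, and Salmon 1.4.0, UMI-tools 1.1.1 and the build GRCm38 are named in the submitters' processing notes. Of the values 12.81% were not whole, and estimated counts were rounded. The table pairs 32 columns with libraries by name and 0 columns were left unused.

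KO and WT were compared within each preparation, preparations were compared with genotype as a covariate, and an interaction term tested whether the KO effect differed between preparations, in R 4.3.3 with edgeR 4.0.16 (TMM, filterByExpr, quasi-likelihood test, Benjamini-Hochberg adjustment over all rows tested). The scripts were tested on simulated data. Permutation tests of correlations used 100000 resamples within genotype, two-sided, in Python 3.11.15 with numpy 2.4.6. Log2 CPM used a prior count of 2. Alternatives were DESeq2 1.42.0, other scalings, filters and row sets, thinned counts, blocks and omitted libraries, and the omission of KO mouse 6 from correlations was chosen after seeing the data. Groups came from the labels. Replicates differed by more than sampling noise, with chi-square per degree of freedom from 6.67 to 65.9 over 72 pairs. Because nothing names separate cultures or litters beyond the mouse numbers, p-values measure the spread between these mice.

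Members and gene lists were chosen with earlier results of these data known. Named genes were all 10 members, Arntl, up to 3 called genes with the largest change per list, and the 5 rows most like the members. Other genes named (Sftpc, Alb, Ddx3y, Siglecf, Adipoq, Chil4, Ear6) serve as marker checks and were chosen after values were seen. Libraries of the same mouse deviated together (r from 0.353 to 0.753 over pairs of preparations), so the mouse pairs preparations by the labels. Positions, lengths and coding sequences came from GENCODE M21 and promoters from RefSeq (GRCm38.p6). The annotation the authors used is not given in the sources used here.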

Additional observations from a re-analysis of the deposited data

Results flagged for a closer look

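Of 60 groups of 4 or 6 libraries examined (10 genes, 6 groups), 2 held a library far from the others, and chance flags about 1 in 20 groups. Ear2 in PolyA WT mouse 2 stood at 11.3 CPM, below the next library at 16.8 CPM, a gap of 0.775 of the group's whole range. Plet1 in PolyA KO mouse 1 stood at 77.0 CPM, above the next library at 53.0 CPM, a gap of 0.666 of the range. The same mice were also lowest for Ear2 (15.8 CPM) and highest for Plet1 (61.9 CPM) in RiboZero. Without the first library Ear2 had a PolyA log2 fold change of -0.16 (edgeR adjusted p = 0.228), and without the second Plet1 had 0.10 (edgeR adjusted p = 0.611), so neither became a call.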

How the results depend on the processing

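Between preparations the counts of called genes (1, 2 and 0) held under all 20 alternatives, and so did the 0 calls of each interaction. In PolyA KO against WT, 3 genes were called with 7 alternatives, 2 with no filter on low counts (without Mrc1, edgeR adjusted p = 0.0673) and 2 with mice 3 to 6 alone (without Ctsk). Fits that left out 1 library gave 1 to 3, with 3 only without WT mouse 2 and 1 without WT mouse 5, KO mouse 2 or KO mouse 5. RiboZero gave 1 with mice 3 to 6 alone and 0 to 1 when 1 library was left out (1 without WT mouse 2), and NoSelect gave 1 with DESeq2 and 0 to 0 when 1 library was left out. Same-numbered WT and KO mice were not paired by the labels and correlated at -0.171 to 0.250. With the replicate number as a block the counts were 0, 3 and 0, and over all rows 372, 617 and 103 in place of 579, 694 and 372. With the mouse as a block, preparations again gave 1, 2 and 0 and interactions 0, 0 and 0, and no call of the 10 genes changed. Calls between preparations also required the fold, so a lower adjusted p alone could not add a call. The block ended the PolyA call of Arntl (0.0613) and gave 4, 6 and 0 lower interstitial macrophage and monocyte markers. DESeq2 called 973, 1381 and 877 rows in KO comparisons. Signs that turned, all far from the threshold, were Ear1 in RiboZero after thinning (-0.012), Chil3 and Plet1 in RiboZero with mice 3 to 6 alone (-0.14 and -0.14), and Krt79 in PolyA against NoSelect with the block (0.11) and with mice 3 to 6 alone (0.064). When 1 library was left out, values crossed 0 in RiboZero for Ear2 (-0.13 to 0.017), Chil3 (-0.11 to 0.20), Ear1 (-0.022 to 0.13) and Plet1 (-0.026 to 0.18). They did so in PolyA for Ear1 (-0.13 to 0.077) and Chil3 (-0.30 to 0.021), and in NoSelect for Ear2 (-0.059 to 0.12), Plet1 (-0.15 to 0.021) and Ear1 (-0.21 to 0.050). The causes were not tested. Depth limits Marco, Fabp4, Krt79 and Ear1 most, with 46, 57, 63 and 93 counts in the RiboZero library where each was lowest.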

Other observations

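Retnla, a secreted marker of alternative activation, rose in RiboZero and PolyA, with log2 fold changes of 2.48 and 2.50 (SE 0.38 each, edgeR adjusted p = 0.0034 and 0.00286). In NoSelect its value was 2.17 (SE 0.49, edgeR adjusted p = 0.0651), and every KO library lay above every WT library in each preparation. It was the 1 called gene of 11 in RiboZero and of 12 in PolyA in a list of alternative activation and chitinase-like genes, whose medians were -0.01, -0.13 and -0.03. Over all rows 3.46% and 4.03% were called in these 2 preparations.

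Among lysosomal genes, Ctsl rose and Ctsh fell in RiboZero, and Ctsb and Ctsh fell in PolyA. Ctsh, an aminopeptidase also made by alveolar type II cells, had log2 fold changes of -0.34 and -0.38 in RiboZero and PolyA (edgeR adjusted p = 0.0327 and 0.0130). The medians of the list were -0.04, -0.09 and -0.11. Of 20 genes of GM-CSF and TGF-beta signalling and surfactant handling, 16 had a negative sign in each preparation. Over all rows 8355 of 16710, 8736 of 17211 and 8536 of 17124 did. In RiboZero 0 of the 20 were called and 4 had an unadjusted p under 0.05, beside 16.4% of all rows. Calls made up 3.46%, 4.03% and 2.17% of all rows in RiboZero, PolyA and NoSelect. Csf2ra, Csf2rb, Csf2rb2, Pparg and Abcg1 are also among the 30 other alveolar macrophage genes. Csf2ra, the alpha chain of the GM-CSF receptor, and Cebpa fell in PolyA by 0.34 and 0.22 (edgeR adjusted p = 0.0490 and 0.0454), and Csf2rb, the beta chain, fell in NoSelect by 0.23 (edgeR adjusted p = 0.0395). When 1 library was left out, the calls of Csf2ra, Cebpa and Csf2rb were lost in 10 of 12, 11 of 12 and 7 of 8 fits, that of Ctsh in RiboZero in 9 of 12, and those of Retnla in none. Pparg gave 0.02, 0.12 and 0.10, with no call (edgeR adjusted p = 0.953, 0.472 and 0.758).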
